A study of Mus musculus with 36 samples.

Results

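Long-lived mRNAs were chosen by their measured half-lives in mouse embryonic stem cells, as those with a half-life of at least 300 min in control, G418-treated and puromycin-treated mESCs alike. Average reads had to be at least 500 and under 10000, and the largest of the 3 half-lives had to be under 2 times the smallest. The rule took 157 of the 5834 mRNAs in this read window (2.69%), or 1.52% of all 10325 mRNAs listed. Because members were selected on half-life and on the ratio between conditions, their long half-lives and narrow ratios are a description and not a finding. Read number inside the window was not used to choose them.

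RNA half-lives were measured by SLAM-Seq in E14Tg2a cells, a 129/Ola line of mESCs grown in 2i medium. All cells carried RNA labelled with 4-thiouracil over 24 h and were then moved to uridine with no antibiotic, with 0.1 µg/mL G418 or with 0.1 µg/mL puromycin. Each condition was sampled at 0, 1, 2, 4, 8 and 24 h of this chase with 2 replicates, for a total of 36 libraries, 12 in each condition. The values analysed here are 1 half-life in minutes per mRNA and condition, with replicates already combined by the authors, so that half-lives come without an error and differences between conditions could not be held against replicates. A single cell line was used, and the antibiotics were present only during the chase. Transcript identifiers were not paired with gene names in the tables used here, so neither the functions of the mRNAs nor the cell type markers could be checked. Each listed transcript was counted as a separate mRNA, and whether some of them share a gene and reads could not be checked either.

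The level of an mRNA is set by its synthesis and its decay, and mRNAs of one cell decay at very different rates. Decay is coupled to translation, since ribosomes that move slowly or stop on an mRNA can lead to its degradation. In SLAM-Seq, labelled nucleotides are read as base conversions, so that the loss of labelled RNA during a chase gives a half-life. G418 is an aminoglycoside that increases misreading of codons, whereas puromycin enters the ribosome and releases unfinished peptides.

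Most mRNAs of the read window were at or above 300 min in none of the conditions (4182 mRNAs, 71.7%). A further 947 reached this half-life in 1 condition, 462 in 2 conditions and 243 in all 3 conditions. Of the 243, 157 had half-lives within 2-fold of each other (64.6%) and made up the long-lived mRNAs, while 86 were 2-fold or more apart. G418 was the condition that most often kept an mRNA out. Half-lives of at least 300 min were found for 637 mRNAs with G418 (10.9%), against 929 in control (15.9%) and 1034 with puromycin (17.7%). Among the 462 mRNAs that reached 300 min in 2 conditions, the half-life below it was that with G418 for 247, that in control for 115 and that with puromycin for 100 mRNAs.

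The median half-life of the long-lived mRNAs was 422 min in control (quartiles 341 and 516, range 301 to 1119.9). With G418 it was 374 min (quartiles 331 and 459.9, range 303 to 1157), and with puromycin 444 min (quartiles 360.1 and 563, range 300.2 to 1109). The other 5677 mRNAs of the read window had a median of 176 min in control, of 169 min under G418 and of 184 min under puromycin. Members therefore lay above the other mRNAs in every condition, as the rule requires, and their median was lowest with G418, as it was in the other mRNAs. At the median half-life in control, an exponential decay would leave 45.4% of a long-lived mRNA after 8 h of chase and 9.37% after 24 h, against 15.2% and 0.350% for the other mRNAs. These shares were calculated from the half-lives and were not measured.

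**Figure D1:**
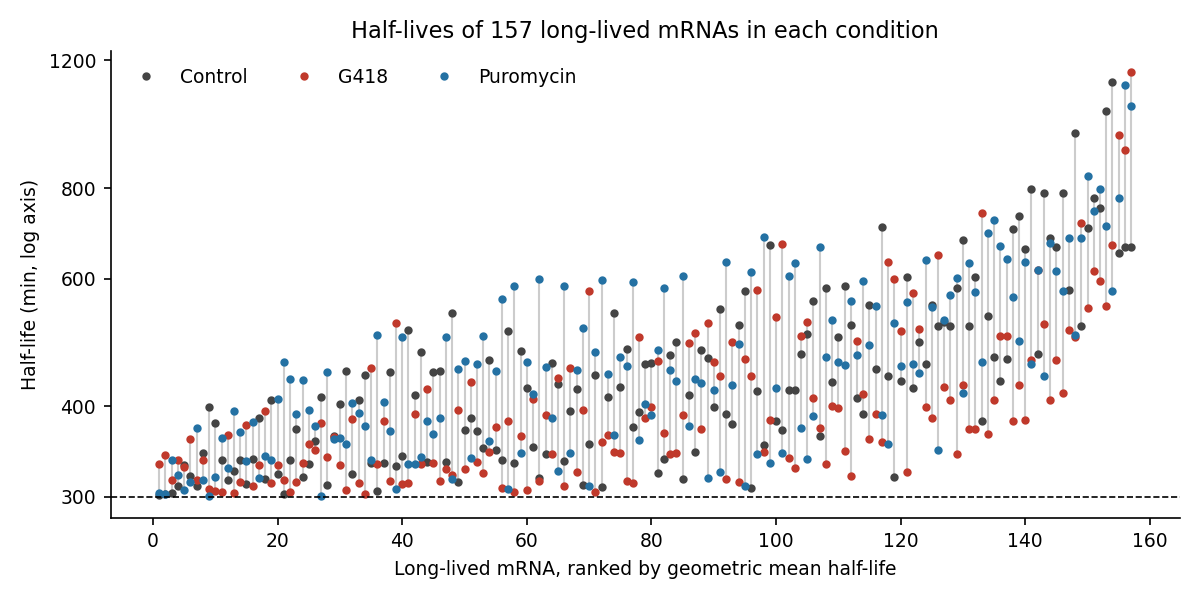
Half-lives in minutes (log axis) of the 157 long-lived mRNAs in control, G418 and puromycin, ranked by the geometric mean of the 3 values, with a grey line from the smallest to the largest and a dashed line at 300 min. The smallest half-life of a member has a median of 338 min, near the dashed line, and the largest a median of 507 min.

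Within the members, half-lives were spread unevenly. The geometric mean of the 3 half-lives had a median of 414 min and quartiles of 376 and 462 min, with a highest value of 927 min. All 3 half-lives reached 400 min in 29 members, 480 min in 11 members and 600 min in 4 members. Most of the set thus lay in the lower part of its range. None of the 157 had a half-life longer than the 24 h chase in any condition. In the read window, 13 mRNAs did in control, 5 with G418 and 18 with puromycin. The 2-fold limit favours this absence, since such a member would need a long half-life in every condition. The largest half-life of a member was a median of 1.43 times its smallest, and 88 of the 157 (56.1%) had half-lives within 1.5-fold.

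The condition with the shortest half-life was G418 for 76 of the 157 long-lived mRNAs (48.4%), control for 46 (29.3%) and puromycin for 35 (22.3%). Puromycin gave the longest half-life for 64 members, control for 56 and G418 for 37. In the other 5677 mRNAs of the read window G418 gave the shortest half-life for 41.8%, control for 31.9% and puromycin for 26.3%. The order of the conditions was thus the same. The rule used these half-lives, so nothing is read from the larger share of G418 in the members. Because ratios of members are limited to 2-fold, they were also set beside the 4101 of these other mRNAs that lay within 2-fold, a comparison chosen after seeing the data. G418 gave the shortest half-life for 41.3% of these 4101 mRNAs.

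For G418 over control, the long-lived mRNAs had a median log2 ratio of half-lives of -0.13 (quartiles -0.42 and 0.18, SD over mRNAs 0.42). It was -0.08 (SD 0.71) in the other mRNAs of the read window and -0.06 (SD 0.42) in those within 2-fold. The half-life was shorter with G418 than in control for 95 members (60.5%), for 56.2% of the other mRNAs and for 55.5% of those within 2-fold. With half-lives scaled to the control median of the read window, the same 157 mRNAs had a median of -0.07. G418 then gave the shorter half-life for 88 of them (56.1%). With no limit on the ratio between conditions the median was -0.25, and with at least 360 min in each condition it was -0.21.

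For puromycin over control, the median log2 ratio was 0.06 in the long-lived mRNAs (quartiles -0.25 and 0.34, SD 0.45), 0.05 in the other mRNAs (SD 0.75) and 0.03 in those within 2-fold. Puromycin gave the longer half-life for 85 members (54.1%), for 53.2% of the other mRNAs and for 52.8% of those within 2-fold. Members with longer and with shorter half-lives under puromycin were thus close to equal in number. After the half-lives were scaled to the control median of the read window, the same 157 mRNAs had a median of -0.0084. This scaling shifts every puromycin ratio by the same amount, so the turn of sign is not a separate result.

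For G418 over puromycin, the median log2 ratio was -0.21 in the long-lived mRNAs (quartiles -0.49 and 0.13, SD 0.44), -0.15 in the other mRNAs (SD 0.72) and -0.11 in those within 2-fold. The half-life was shorter with G418 than with puromycin for 101 members (64.3%), for 61.0% of the other mRNAs and for 60.03% of those within 2-fold. Of the 3 ratios this was the one farthest from 0 in the members. With G418 and puromycin half-lives scaled so that each median over the read window equals that of control, the same 157 mRNAs had a median of -0.084, and the half-life was shorter with G418 for 85 of them (54.1%).

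Ratios were also compared at like half-life. From 300 to under 400 min of geometric mean half-life, the 71 members had a median log2 ratio of -0.09 for G418 over control and of -0.13 for G418 over puromycin, and the 191 other mRNAs within 2-fold had -0.36 and -0.37. These other mRNAs had at least 1 half-life under 300 min, so the rule itself separates the sets. From 200 to under 300 min, where there are no members, 1133 mRNAs within 2-fold had -0.11 and -0.15. From 400 to under 600 min there were 76 members, with -0.25 and -0.34, and 4 other mRNAs. Ratios of G418 below 0 were thus also present in mRNAs with half-lives near those of the members. The comparisons share conditions with each other, so they are not independent, and no test was made of any difference between members and other mRNAs.

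**Figure D2:**
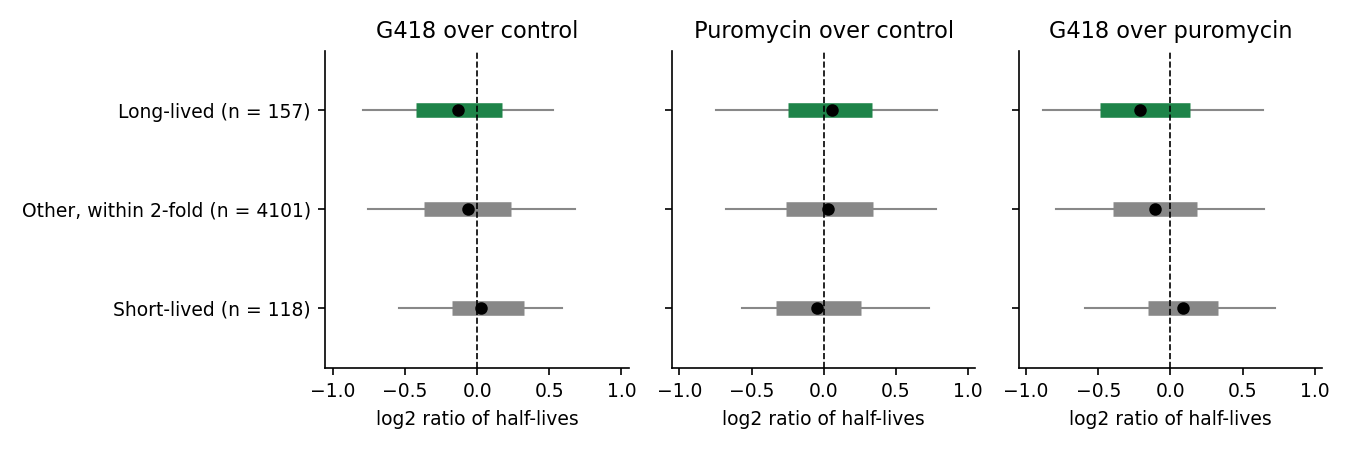
Log2 ratios of half-lives for the 157 long-lived mRNAs, the 4101 other mRNAs of the read window within 2-fold and 118 short-lived mRNAs (at most 100 min in each condition and within 2-fold). Points are medians, thick bars run between the quartiles and thin lines from the 5th to the 95th percentile of mRNAs. The medians of G418 over puromycin run from -0.21 in long-lived to 0.09 in short-lived mRNAs. Each set was chosen by these same half-lives, which shapes its ratios.

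Ratios past 1.5-fold were counted in each direction over the whole read window, and since the rule used these ratios nothing is read from the counts. G418 half-lives were at least 1.5-fold shorter than control for 25 members (15.9%), against 19.9% of the read window, and at least 1.5-fold longer for 6 members (3.82%), against 12.8%. Puromycin half-lives were at least 1.5-fold shorter than control for 12 members, against 14.8% of the read window, and at least 1.5-fold longer for 21 members, against 20.2%. G418 half-lives were at least 1.5-fold shorter than those with puromycin for 31 members, against 22.7%, and at least 1.5-fold longer for 9 members, against 11.3%. The read window is not held to 2-fold as the members are. Among the 4101 other mRNAs within 2-fold, G418 half-lives were at least 1.5-fold shorter than control for 11.8% and longer for 7.56%, and puromycin half-lives were at least 1.5-fold shorter than control for 7.61% and longer for 11.6%. Half-lives with G418 were at least 1.5-fold shorter than with puromycin for 12.9% of them and longer for 6.53%.

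Long-lived mRNAs had more reads than the other mRNAs of the same read window. Their median was 2196 average reads (quartiles 1077 and 4103, range 523 to 9872), and that of the other mRNAs was 1039.8 (quartiles 700.25 and 1757), a log2 ratio of medians of 1.08. Members were 2.69% of the mRNAs in the window and held 5.05% of its reads. Their share rose with read number at each step, from 36 of 2748 mRNAs with 500 to under 1000 reads (1.31%) and 33 of 1813 with 1000 to under 2000 (1.82%) to 46 of 882 with 2000 to under 4000 (5.22%) and 42 of 391 with 4000 to under 10000 (10.7%).

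Long half-lives and likeness between conditions both rose with read number. The share of mRNAs with at least 300 min in all 3 conditions rose from 2.07% in the lowest read bin to 16.4% in the highest, and the share within 2-fold, at any half-life, was 63.2%, 78.2%, 85.6% and 89.3% from the lowest bin to the highest. Among mRNAs already at or above 300 min in all 3 conditions, which itself needs likeness between conditions, those within 2-fold were 36 of 57, 33 of 55, 46 of 67 and 42 of 64. In each single condition the share at or above 300 min was also larger in the highest read bin than in the lowest: 29.4% against 13.2% in control, 20.2% against 9.50% with G418 and 30.9% against 15.9% with puromycin. The short-lived mRNAs showed no such steady rise, with shares of 1.75%, 1.71%, 3.40% and 2.30% from the lowest read bin to the highest. Read number depends on the level of the mRNA and is also the depth behind its half-life, and these cannot be told apart here. Read numbers were not corrected for mRNA length.

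**Figure D3:**
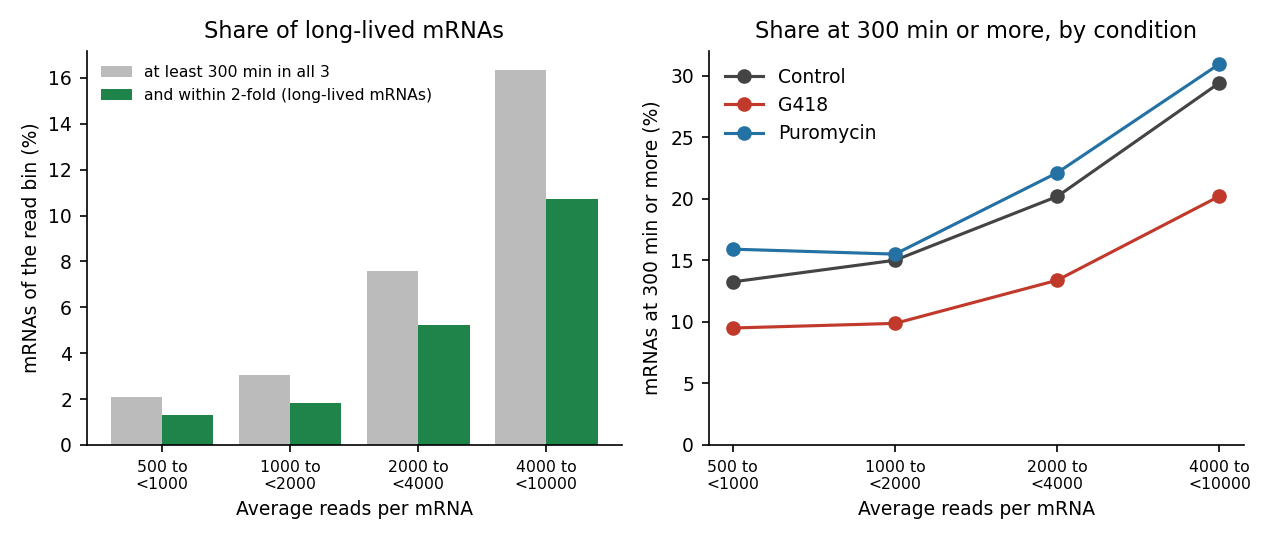
Left, percent of the mRNAs of each bin of average reads that had half-lives of at least 300 min in all 3 conditions (grey bars) and that were also within 2-fold (green bars). Right, percent at or above 300 min in each condition. The green bars rise from 1.31% to 10.7%, and G418 has the lowest share in every bin.

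Among the members themselves, read number and half-life were weakly related. Spearman's rho between average reads and the geometric mean half-life was 0.17 across the 157 mRNAs, which share the same libraries and were bounded at 300 min by the rule. Median half-lives with G418 were 376, 345, 379.7 and 389 min from the lowest read bin to the highest, and those in control 379.8, 433, 431 and 423 min. For G418 over puromycin, the log2 ratio had a median of -0.04 in the 36 members of the lowest read bin and -0.30, -0.20 and -0.34 in the 33, 46 and 42 members of the next bins. For G418 over control the medians were 0.02, -0.20, -0.04 and -0.22 from the lowest read bin to the highest. The ratio to puromycin was thus below 0 in each bin but near 0 in the lowest, and the ratio to control was near 0 in the lowest bin and in that of 2000 to under 4000 reads. Other mRNAs within 2-fold had -0.04, -0.05, -0.08 and -0.12 for G418 over control in the same bins. For G418 over puromycin they had -0.07, -0.10, -0.15 and -0.13. Members were thus not lower than these other mRNAs in the lowest bin for either ratio. From 2000 to under 4000 reads they were not lower for G418 over control.

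How often the 3 half-lives of an mRNA lay within 2-fold differed with their geometric mean. In the read window, 80.5% of the 1697 mRNAs with a geometric mean half-life from 150 to under 200 min were within 2-fold, against 55.6% of 471 from 300 to under 400 min, 37.9% of 211 from 400 to under 600 min and 15.6% of 64 at 600 min or more. These last 3 bins held 71, 76 and 10 of the long-lived mRNAs. The geometric mean is taken from the same 3 half-lives. A single outlying long value both raises it and breaks the 2-fold limit, so the lower shares in these bins are partly built in. Agreement between conditions was more frequent with more reads. At a geometric mean from 300 to under 400 min, 78.9% of 142 mRNAs with at least 2000 reads were within 2-fold, against 45.6% of 329 mRNAs with fewer. At 400 min or more the shares were 44.7% of 123 and 23.0% of 152 mRNAs.

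**Figure D4:**
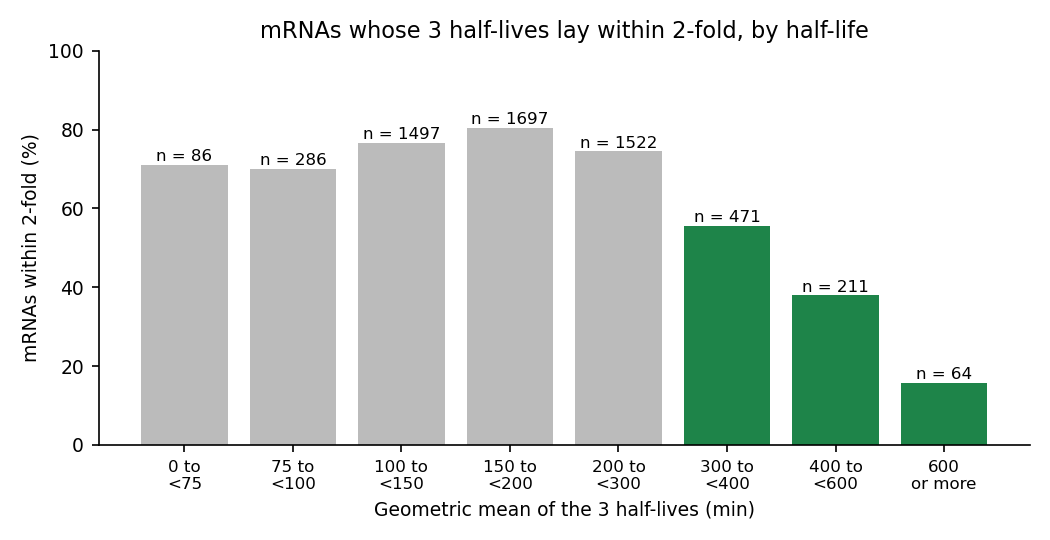
Percent of mRNAs of the read window whose 3 half-lives lay within 2-fold, by bin of their geometric mean half-life in minutes, with the number of mRNAs above each bar. Green bars are the bins that hold long-lived mRNAs, where the share falls from 55.6% to 15.6%. Bins and shares come from the same 3 half-lives, so this fall is partly built in.

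Long half-lives recurred between conditions for part of the mRNAs. Of the 929 mRNAs at or above 300 min in control, 343 were so with G418 (36.9%) and 490 with puromycin (52.7%), against 10.9% and 17.7% of the whole read window. Of the 637 mRNAs at or above 300 min with G418, 358 were so with puromycin (56.2%). Recurrence was larger with more reads, and so was the share of all mRNAs at or above 300 min. From control to G418 it was 30.2% of 364 mRNAs in the lowest read bin, where 9.50% of all mRNAs reached 300 min with G418, and 59.1% of 115 in the highest, where 20.2% did. From control to puromycin it was 37.9% against 15.9% of all mRNAs in the lowest bin and 83.5% against 30.9% in the highest.

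The 86 mRNAs that were at or above 300 min in all conditions but 2-fold or more apart resembled the members in reads, with a median of 1990.9. Their smallest half-life was also close, with a median of 356 min against 338 min in the members. They differed in the largest half-life, with a median of 1035.9 min against 507 min. A ratio of 2 or more above a smallest half-life of at least 300 min requires a long largest half-life, so this difference follows from the rule. The median half-life of the 86 mRNAs was 717 min in control, 661 min under puromycin and 397 min under G418. These half-lives were also used to choose the 86 mRNAs, so nothing is read from the medians.

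The 118 short-lived mRNAs, at the opposite end of half-lives in the read window, had a median of 74.3 min in control, of 77.8 min under G418 and of 68.7 min under puromycin. The G418 half-life had a median log2 ratio of 0.02 to control and of 0.09 to puromycin. These mRNAs were chosen by a ceiling on the same half-lives, as the members were by a floor. Both cuts shape the ratios, so nothing is read from their difference. The median read number of the short-lived mRNAs was 1277, between those of the long-lived and of the other mRNAs.

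Single members show the range of ratios that the rule allows. The 2 members with the lowest ratio of G418 over control were uc007ija.3, with a half-life of 707 min in control, of 356 min under G418 and of 389 min under puromycin, and uc007bkl.2, with 954, 498 and 501 min. Both antibiotics thus gave the shorter half-lives for these mRNAs. The 2 members with the highest ratio were uc008vbb.1, with 381 min in control, 738 min under G418 and 459.6 min under puromycin, and uc009fvc.1, with 319, 599 and 522 min. In these mRNAs control had the shortest half-life. The log2 ratios of G418 over control were -0.99 and -0.94 for the lowest pair and 0.96 and 0.91 for the highest pair, and these mRNAs had 925, 2902.5, 911 and 663 average reads.

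The member with the longest geometric mean had a half-life of 663 min in control, of 1157 min under G418 and of 1039 min under puromycin, at 2455 reads. The member with the most alike half-lives had 364, 362 and 360.1 min in the same order, at 763 reads. The member with the most reads, 9872, had 336, 309.9 and 586 min. These are single extremes and do not show how the traits go together in the other members.

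Many members lay near the limits of the rule. The smallest half-lives just inside were 300.2, 301.0 and 301.1 min, and those just outside, among mRNAs within 2-fold, were 299.98, 299.9 and 299.8 min. A smallest half-life from 300 to under 320 min was found for 55 members, and one from 280 to under 300 min for 52 mRNAs that were otherwise within 2-fold. The largest ratios just inside were 1.9996, 1.99 and 1.986, and those just outside were 2.01, 2.05 and 2.08. The fewest reads of a member were 523 and 529, and the nearest mRNAs below the window that met the rest of the rule had 494 and 491 reads. At the upper limit, members had 9872 and 9553 reads, and mRNAs above it 10071.5 and 10152.5.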

How the data were processed

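Paired-end reads had been aligned by the authors to the mouse transcriptome (mm10) with Bowtie2, whose version is not given in the sources used here; the labels also list GRCm39 with no stated role. The authors scored U to C conversions and fitted an exponential decay to the labelled fraction of each mRNA. The deposited table gives half-lives in minutes for control, G418 and puromycin and average read counts per mRNA. Each average multiplied by 36 was whole within 0.01 reads, so averages were taken as means over the 36 libraries. They sum to 14634046 reads per library, while the depth of single libraries was not analysed here. How replicates were combined and which filters were applied is not given in the sources used here.

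Half-lives were used as deposited, without scaling, and log2 ratios were taken within each mRNA. Members were those with at least 500 and under 10000 average reads, at least 300 min in each condition and a largest half-life under 2 times the smallest. The members and lists were chosen with earlier results of these data known. The comparison with other mRNAs within 2-fold, also by half-life, the split at 2000 reads and the scaling of half-lives with the members kept were chosen after seeing the data. Medians, quartiles and SDs run over mRNAs, which are not replicates, so no test was made. Identifiers printed are the 2 members with the lowest and the 2 with the highest ratio of G418 over control. Lists of genes and cell type markers could not be applied, since none of the identifiers was found in the reference tables used here. The calculations were tested on simulated data in which long-lived mRNAs were set clearly apart from the others. That test checks the code and says nothing of the mRNAs near the limits. Python 3.11.15, numpy 2.4.6, pandas 2.3.3 and matplotlib 3.10.9 were used.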

Additional observations from a re-analysis of the deposited data

How the results depend on the processing

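Of 40 alternative values for 5 results, 11 moved, by more than 1.5 times for the number of mRNAs or by more than 0.1 on the log2 scale for the others, and 1 changed sign. The number of long-lived mRNAs was 157 and became 88 under 1.5 times the smallest half-life, 243 with no limit on the ratio, 430 at 240 min and 53 at 360 min, as a looser or stricter rule requires. For G418 over control, the median log2 ratio of -0.13 became -0.25 with no limit on the ratio. The log2 ratio of median reads over other mRNAs was 1.08 and became 0.81 at 240 min, 1.47 at 360 min, 0.80 with at least 1000 reads, 1.88 with no limits on reads and 0.87 as a mean of log2 reads; for the half-life limits the cause was not tested, and the read limits change which mRNAs are compared. With G418 and puromycin half-lives scaled to the control median of the read window, 160 mRNAs met the rule, of which 143 were among the 157, but the rule then chose on the scaled ratios. These 160 mRNAs had medians of -0.11 for G418 over control, 0.04 for puromycin over control and -0.18 for G418 over puromycin. For the same 157 mRNAs, an alternative chosen after seeing the data, scaling gave medians of -0.07 for G418 over control, -0.0084 for puromycin over control, which was 0.06 as deposited, and -0.084 for G418 over puromycin, which was -0.21, as the scaling shifts every ratio. No paired analysis was possible because replicates had been combined into 1 half-life per condition, and leaving out a replicate could not be run for the same reason. The precision of a single half-life, which depends on the number of converted reads, is unknown.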

Other observations

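Outside the read window, 36 of 161 mRNAs with at least 10000 average reads met the rest of the rule (22.4%), and 62 had half-lives of at least 300 min in all 3 conditions (38.5%). Below 500 reads, 40 of 4330 mRNAs met the rest of the rule (0.924%). The rise of the share with read number thus went on beyond both limits of the window. Among the 947 mRNAs of the read window with at least 300 min in 1 condition, this condition was puromycin for 429, control for 339 and G418 for 179 mRNAs.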
